A study of Mus musculus with 6 samples.

Results

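Cultured mouse neural stem cells were compared with the cells they became after differentiation, by RNA sequencing of whole cultures. The comparison took every library of the series, 6 of 6: 3 of undifferentiated cells, called NSC below, and 3 of differentiated cells, whose label reads D2 and is not spelled out further. All cells were of the OG2 strain, which is known for a fluorescent reporter under control of the stem cell gene Pou5f1, and all were at passage 8. Each state had a control library without ligand, a library with naloxone, which blocks opioid receptors, and a library with DAMGO, a peptide that activates the mu opioid receptor. A group was thus 1 library, and the labels do not say whether libraries came from separate cultures or how the cells were differentiated. D2 and NSC were therefore compared across the 3 ligand conditions, with the ligand as a block, and p-values reflect just the spread among these 6 libraries, part of which may be technical. Library totals were 8417074 to 13561237 expected counts. Of 29267 genes listed, 13216 had a mean of at least 10 counts and were tested. Levels are given as CPM, counts scaled to library size by the TMM method, in the order control, naloxone, DAMGO.

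Neural stem cells divide under growth factors and keep high levels of the machinery for making ribosomes, nucleotides and proteins. On differentiation they leave the cycle and give rise to neurons, astrocytes or oligodendrocytes. Astrocytes take up glutamate and potassium, store glycogen and are joined by gap junctions, oligodendrocyte precursors express their own receptors and lipid enzymes, and young neurons send out axons that read guidance cues. The gene classes below were grouped by roles of this kind. Lists of cell cycle, astrocyte marker and Notch genes were not among them, though some of their genes belong to other lists.

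Most expressed genes changed, so a change by itself sets no class apart. In edgeR's quasi-likelihood test at an adjusted p of 0.05, 79.8% of tested genes were called, 40.0% risen and 39.8% fallen in D2, with a median log2 fold change of 0.00. The 3 D2 and the 3 NSC libraries did not overlap for 82.2% of genes. Risen and fallen genes that changed by at least 2-fold were 15.9% and 18.0% of those tested, and those that changed by at least 8-fold 2.07% and 2.33%. All changes are relative to the other RNA of a library, and in whole cultures fewer cells of a type and less RNA per cell cannot be told apart.

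Neural stem cell markers were expressed in both states. Sox2, a transcription factor of neural progenitors, read 367, 376 and 391 CPM in NSC and 632, 571 and 551 CPM in D2, with a log2 fold change of 0.63 (SE 0.06, adjusted p = 5.49e-07) in edgeR. Nes, the intermediate filament gene nestin, read 1824, 1855 and 1831 CPM in NSC and 395, 411 and 408 CPM in D2, a change of -2.18 (SE 0.04). Of 15 neural stem cell markers 10 rose and 4 fell, and their summed level was 7940 to 8040 CPM in NSC and 6690 to 7020 CPM in D2. The lists for immune and vascular cells had low sums. The 14 microglia and macrophage markers summed to 3.97 to 5.84 CPM in NSC and 1.57 to 2.49 CPM in D2. Of these, Cx3cr1, Tyrobp, C1qa, C1qb and C1qc were at 0 in all 6 libraries. The 12 endothelial markers summed to 6.28 to 7.37 CPM in NSC and 4.98 to 6.14 CPM in D2, with Cldn5 at 0. Pluripotent cell markers were low too, at 22.3 to 24.9 CPM in NSC and 4.12 to 6.26 CPM in D2 over 13 genes. Zfp42, Dppa3, Dppa4, Dppa5a, Utf1 and Fgf4 were at 0 throughout, and Pou5f1 had 2, 1 and 0 counts in the NSC libraries and 0, 19 and 0 in the D2 libraries. Markers of other cell types that can arise in such cultures were higher in D2. The 15 markers of mature oligodendrocytes summed to 28.9 to 29.8 and 46.5 to 48.2 CPM, the 12 of ependymal cells to 7.61 to 9.47 and 42.3 to 48.1 CPM with Tmem212 and Sntn at 0, and the 13 of fibroblasts and pericytes to 1.32 to 11.8 and 16.1 to 31.3 CPM. The 20 markers of mature neurons stood at 140.0 to 144 CPM in NSC and 165 to 173 CPM in D2, with Slc17a6, Sst and Vip at 0. The part of these cell types in the results below was not tested.

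Transcript GC content moved with the change. Tested genes with a mean of at least 5 CPM were split into 10 equal groups by GC content. The median log2 fold change ran from -1.0 in the lowest group, 33.65 to 42.96% GC, to 0.34 in the highest, 58.13 to 74.68% GC. The gradient was seen after the data were examined, and its cause was not tested. A further edgeR fit with GC and length offsets brought the medians of the groups to between -0.03 and 0.16 and called 5379 genes risen and 5002 fallen. Class medians from that fit are drawn in the plot of gene classes and given in the text for some classes.

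**Figure D1:**
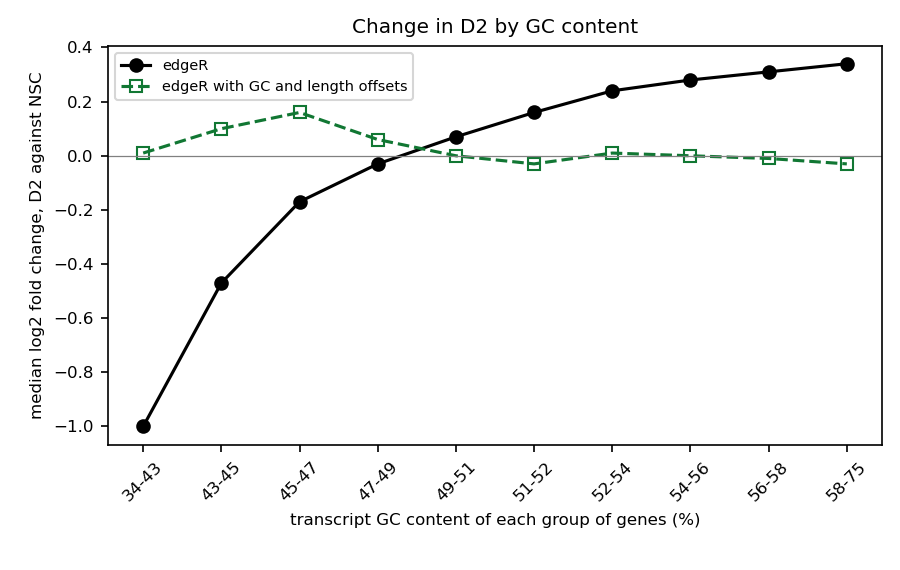
Median log2 fold change of D2 against NSC (vertical axis) for 10 equal groups of tested genes by transcript GC content in percent (horizontal axis), from the edgeR fit (filled circles) and from the fit with GC and length offsets (open squares). The groups hold tested genes with a mean of at least 5 CPM. The filled circles climb from -1.0 to 0.34, and the open squares stay between -0.03 and 0.16.

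A small set of genes passed from near silence to clear expression. Of the tested genes, 23 (0.174%) had at most 1 CPM in every NSC library and at least 10 CPM in every D2 library, and 12 (0.0908%) did the reverse. These levels define the sets, so they are a description and no test. Of the 23 genes switched on, 21 were protein-coding, 1 was a long intergenic RNA and 1 an antisense RNA. Id4 was the gene nearest the upper limit in NSC, with 0.961 CPM in its highest library, and Ccdc13 the gene nearest the lower limit in D2, with 10.01 CPM. Just outside stood Myl9, a myosin light chain gene, with 1.035 CPM in an NSC library, and March3, with 9.805 CPM in a D2 library. The sizes of the sets depend on these limits: with at least 5 CPM as the level for an expressed gene, 61 were switched on and 34 off.

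Several switched-on genes encode regulators of transcription or cell fate. Id4 (chromosome 13, 48261228 to 48266026, mm10), an inhibitor of basic helix-loop-helix factors, read 0.567, 0.961 and 0.441 CPM in NSC and 59.3, 59.3 and 51.7 CPM in D2. Neurog2 (chromosome 3, 127633135 to 127635631), a proneural factor, read 0.472, 0.518 and 0.331 CPM in NSC and 19.1, 22.6 and 24.7 CPM in D2, a log2 fold change of 5.57 (SE 0.21, adjusted p = 1.73e-10) in edgeR. Sox10, the lineage factor of oligodendrocytes, read 0.756, 0.592 and 0.441 CPM in NSC and 31.6, 24.3 and 28.7 CPM in D2. None of these 3 genes passed 0.961 CPM in an NSC library or was under 19.1 CPM in a D2 library. Prdm16, a chromatin regulator, and Tox, a nuclear protein of the HMG box type, were also switched on, with lowest D2 levels of 25.4 and 10.6 CPM.

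Other switched-on genes encode enzymes, secreted proteins and adaptors. Abhd3, a phospholipase of the abhydrolase family, read 0.378, 0.370 and 0.441 CPM in NSC and 72.4, 63.6 and 68.5 CPM in D2. Lipg, which encodes endothelial lipase, read 0.567, 0.148 and 0.110 CPM in NSC and 41.1, 37.2 and 38.8 CPM in D2. Lims2, an adaptor of integrin adhesions, read 0.567, 0.444 and 0.331 CPM in NSC and 34.2, 28.9 and 30.9 CPM in D2. Each was below 0.6 CPM in all NSC libraries and above 28 CPM in all D2 libraries. S100a1, a calcium-binding protein gene, reached 15.01, 13.3 and 18.4 CPM in D2 against 0.850, 0.666 and 0.551 CPM in NSC. Fndc5, the precursor gene of irisin, reached 33.5, 27.8 and 31.6 CPM in D2 against 0.756, 0.666 and 0.662 CPM in NSC. Ccdc190 reached 33.5, 33.0 and 30.1 CPM against 0, 0.592 and 0.331 CPM. Pdzph1, with 2 counts in all NSC libraries together and 333 in D2, was 202 times higher per count of library, and the exact 95% interval of 55.6 to 1680.0 covers counting error only. Gal3st1, which makes the myelin lipid sulfatide, Dhrs3, a retinaldehyde reductase, Itih3, a component of the hyaluronan matrix, Rnf43, a ubiquitin ligase that removes Wnt receptors, Col9a2, Frem2, Lrtm2, Ccdc13, the long intergenic RNA 2900052N01Rik and the antisense RNA 9630028B13Rik were the other members, with 10.01 to 22.3 CPM in D2. The predicted gene Gm21738 was uneven among D2 libraries, at 20.6, 10.9 and 113 CPM.

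Genes switched off had varied functions. Cd93 (chromosome 2, 148436640 to 148443563), a transmembrane lectin-like receptor, read 58.1, 59.1 and 60.9 CPM in NSC and 0.785, 0.591 and 0.340 CPM in D2. Clic5, a member of the chloride intracellular channel family that binds the cortical cytoskeleton, read 41.4, 42.9 and 38.7 CPM in NSC and 0.589, 0.709 and 0.792 CPM in D2. Scml4, of the sex-comb-on-midleg family, read 33.0, 32.7 and 34.8 CPM in NSC and 0.589, 0.118 and 0.453 CPM in D2. These 3 genes were above 32 CPM in every NSC library and below 1 CPM in every D2 library. Arc, which is induced by synaptic activity and growth factors, read 31.4, 30.7 and 30.8 CPM in NSC and 0.883, 0.591 and 0.226 CPM in D2. Cpne7, a calcium-dependent membrane binding protein gene, read 26.9, 30.2 and 26.6 CPM in NSC and 0.687, 0.945 and 0.679 CPM in D2. Adamts14, a procollagen peptidase, read 25.3, 26.7 and 21.7 CPM in NSC and 0.0981, 0.473 and 0 CPM in D2, the largest fall of the 10 named genes by edgeR at a log2 fold change of -6.98 (SE 0.30). Dgkg, a diacylglycerol kinase, Sema3c, a secreted semaphorin, Anxa3, an annexin, Fbxo48 and Filip1 were between 10.5 and 15.9 CPM in NSC. The 12th gene, 8030451A03Rik, is annotated as a processed transcript and read at least 11.8 CPM in NSC.

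**Figure D2:**
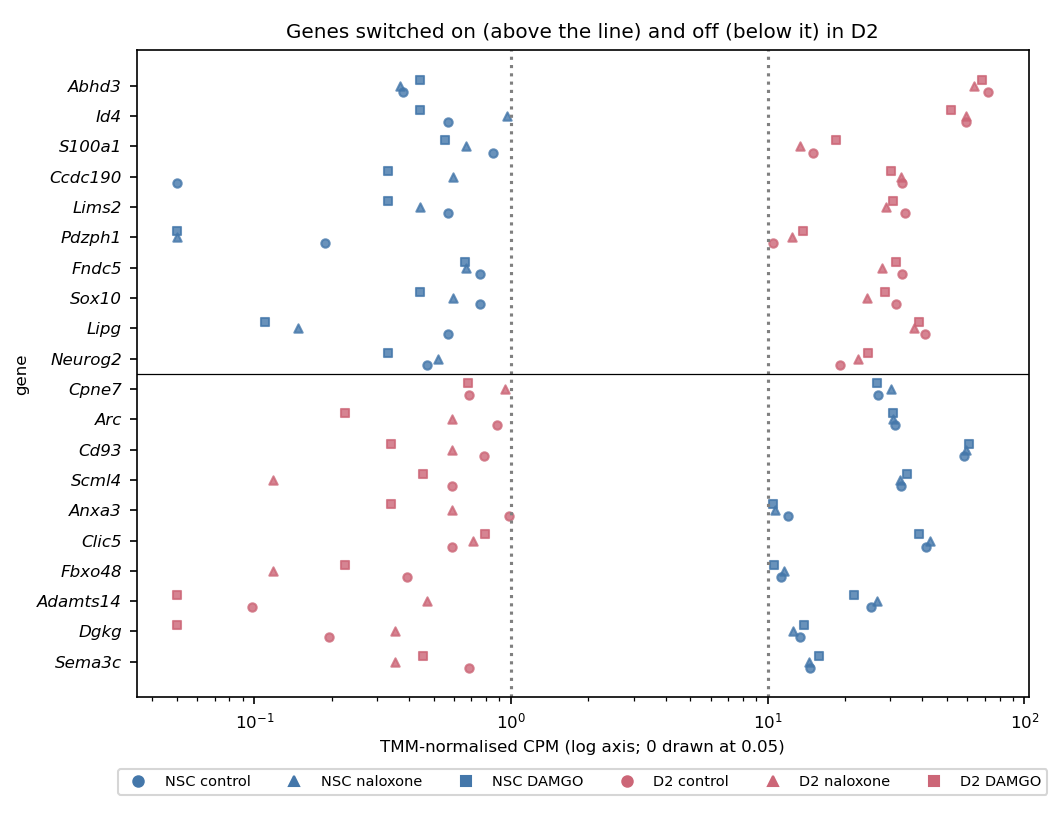
TMM-normalised CPM (horizontal log axis, with 0 drawn at 0.05) in each of the 6 libraries for the 10 genes switched on and the 10 switched off with the highest TPM, 1 point per library, coloured by state and shaped by ligand. Dotted lines mark 1 and 10 CPM, and every point of a state lies on its own side of the gap between them, whatever the ligand.

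Gene lists by role show which kinds of genes moved together. The most abundant gene of a list is that with the highest TPM. Each list is given by its members risen and fallen and by its median, to be read against 40.0% risen, 39.8% fallen and a median of 0.00 over all tested genes. Among these lists, members that rose were most frequent in fatty acid oxidation, retinoid and aldehyde metabolism, receptor tyrosine kinases, junctions, G protein-coupled receptors and lysosomal proteins. Members that fell were most frequent in the ribosome biogenesis, nucleotide synthesis and translation lists. No test of a list against other genes was made.

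**Figure D3:**
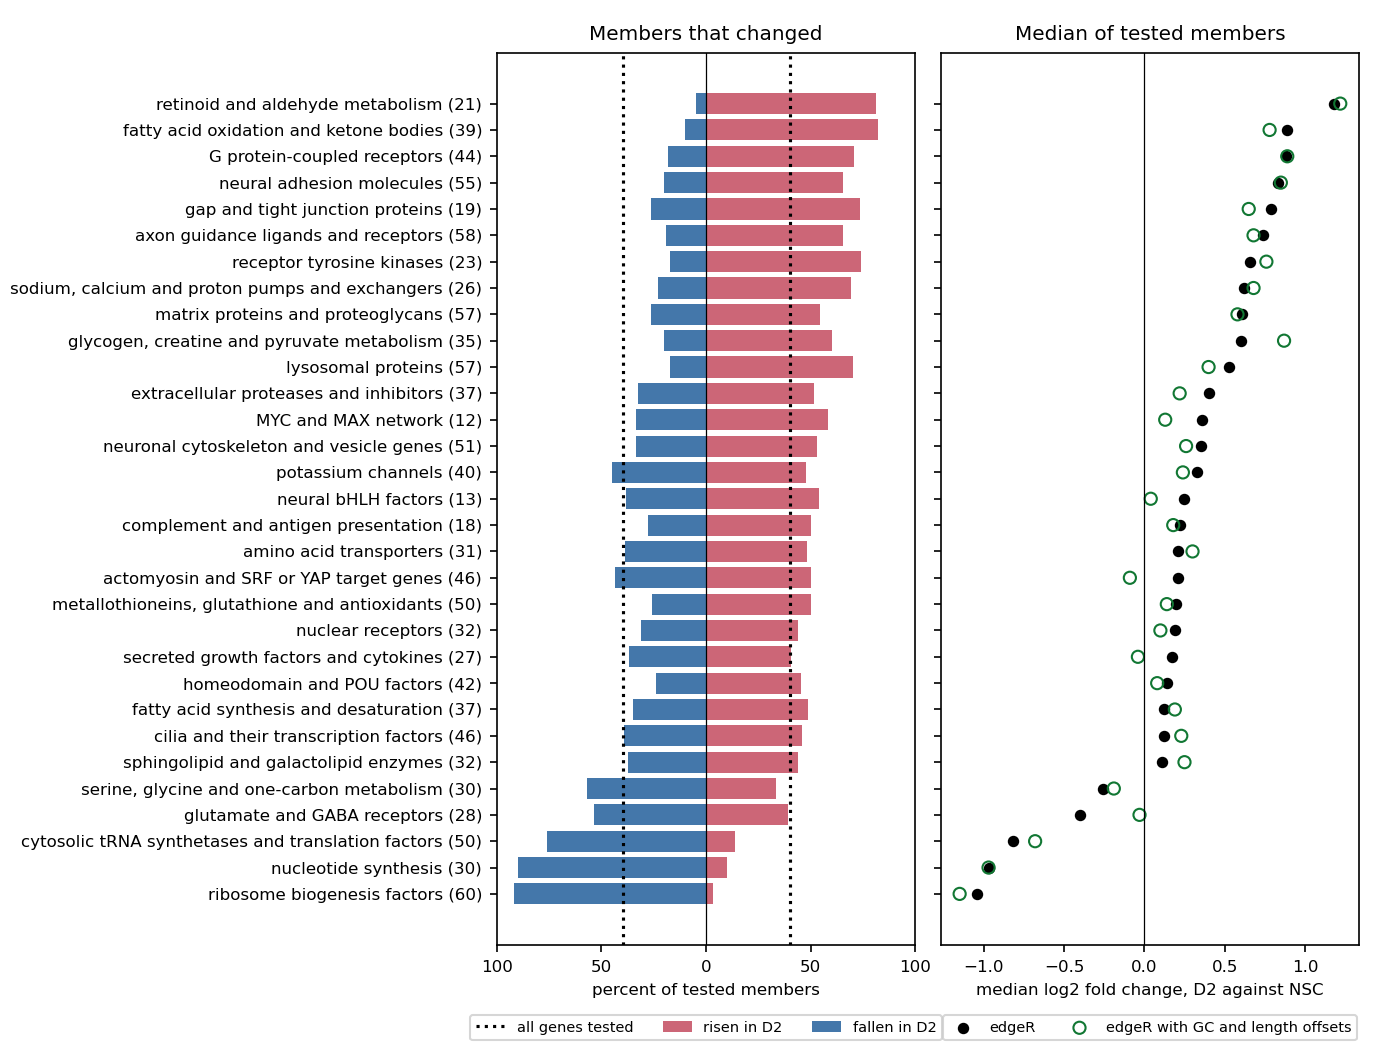
Left, percent of tested members of each of 31 gene lists (number tested in parentheses) that rose (right of 0) or fell (left of 0) in D2, with dotted lines at 40.0% and 39.8% for all tested genes. Right, median log2 fold change of the list in the edgeR fit (filled) and in the fit with GC and length offsets (open); it lies between -1.04 and 1.18 in the former.

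Most receptor tyrosine kinases rose, and secreted signals were mixed. Among receptor tyrosine kinases, the receptors of growth factors, 17 of 23 tested rose and 4 fell (median log2 fold change 0.66). Axl, the receptor of the bridging ligand Gas6, read 3.87, 4.66 and 4.85 CPM in NSC and 106, 103 and 106 CPM in D2, an edgeR log2 fold change of 4.55 (SE 0.09, adjusted p = 1.58e-12). Ntrk2, the receptor of the neurotrophin BDNF and the receptor of this list with the highest TPM, read 261, 275 and 279.6 CPM in NSC and 1808, 1941 and 1781 CPM in D2. Both were several times higher in every D2 library than in any NSC library. Pdgfrb had 3 counts in NSC and 222 in D2, a ratio of 89.9 (exact 95% interval 30.4 to 439, for counting error). Pdgfra, the receptor that marks oligodendrocyte precursors, read 13.1, 14.3 and 11.9 CPM in NSC and 414, 351 and 367 CPM in D2. The collagen receptor Ddr2 and the Wnt5a receptor Ror2 fell (log2 fold changes -2.10 and -1.35). In TPM, which allows for transcript length, Ddr2 fell less, from 8.14, 8.45 and 10.27 in NSC to 4.87, 7.36 and 4.71 in D2. In the list of secreted growth factors and cytokines, 11 of 27 rose and 10 fell, with a median of 0.17 that became -0.04 with GC and length offsets. Ptn, a heparin-binding growth factor, read 741, 783 and 762 CPM in NSC and 1854, 1718 and 1641 CPM in D2 (edgeR log2 fold change 1.19, SE 0.05). Kitl, the ligand of the receptor Kit, read 171, 168 and 179 CPM in NSC and 42.2, 52.3 and 44.6 CPM in D2, and Tgfa, a ligand of the EGF receptor, rose by 1.95 on the same scale. With GC and length offsets Ptn came to 1.83. Angptl4, a lipase inhibitor, had 1 count in NSC and 149 in D2.

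G protein-coupled receptors also rose in most cases, 31 of 44, and 8 fell (median 0.88). S1pr1, a receptor of the lipid sphingosine 1-phosphate, read 8.50, 9.24 and 8.27 CPM in NSC and 274, 254 and 252 CPM in D2, an edgeR log2 fold change of 4.90 (SE 0.07, adjusted p = 2.37e-13). Celsr1, an adhesion receptor of planar cell polarity, read 6.52, 6.73 and 7.17 CPM in NSC and 210.1, 216 and 206 CPM in D2. Ednrb, the endothelin receptor of astrocytes and their progenitors, read 231, 255 and 253 CPM in NSC and 2111, 2462 and 1974 CPM in D2 and had the highest TPM of the list. All 3 genes were higher in every D2 library than in any NSC library. The nucleotide receptor P2ry2 rose from 0.472, 0.222 and 0.551 CPM to 6.28, 4.73 and 5.55 CPM. In contrast, Chrm3, a muscarinic acetylcholine receptor, read 69.4, 78.1 and 75.1 CPM in NSC and 5.10, 5.43 and 4.87 CPM in D2 (edgeR log2 fold change -3.85, SE 0.09), and the cannabinoid receptor Cnr1 fell by 2.65 on the log2 scale.

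Transcription factor families showed mixed changes with sharp moves of single members. The MYC and MAX network balances growth-promoting MYC proteins against MXD repressors that share the partner MAX, and 7 of its 12 members rose and 4 fell (median 0.36). Myc read 183, 179 and 170.2 CPM in NSC and 88.4, 78.4 and 79.6 CPM in D2, an edgeR log2 fold change of -1.11 (SE 0.06, adjusted p = 2.61e-09). Mycl read 17.5, 19.9 and 21.7 CPM in NSC and 156, 146 and 158 CPM in D2, a change of 2.96 (SE 0.07), so the 2 MYC genes moved in opposite directions in all 3 ligand conditions. The repressors Mxd1 and Mxd4 rose by 2.37 and 2.04, whereas Mxd3, which is known from S phase cells, fell by 2.74 on the log2 scale, and Mga fell by 1.44 (-0.81 with GC and length offsets). Of 13 neural helix-loop-helix genes, 7 rose and 5 fell (median 0.25). Apart from Neurog2, Npas3 rose by 1.00 and Bhlhe40 fell by 1.02, and Olig1, the most abundant of the list, read 2217, 2129.7 and 2222 CPM in NSC and 3983, 3560.5 and 3847 CPM in D2 and rose (0.79, and 0.38 with the offsets).

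Nuclear receptors, which bind hormones and lipids, rose in 14 and fell in 10 of 32 cases (median 0.19). Thra, the thyroid hormone receptor alpha, read 139.6, 149.6 and 139 CPM in NSC and 471, 441 and 496 CPM in D2 (edgeR log2 fold change 1.71, SE 0.06). Ppara, which drives fatty acid oxidation genes in liver, was low but rose from 1.61, 1.48 and 0.882 CPM to 6.08, 6.97 and 6.45 CPM. Esrrb, a receptor gene of pluripotent cells, read 15.96, 14.6 and 16.5 CPM in NSC and 0.981, 1.42 and 1.58 CPM in D2, with all D2 libraries below all NSC libraries. Homeodomain and POU genes rose in 19 and fell in 10 of 42 cases (median 0.14), with Dlx2, a factor of interneuron progenitors, at 2.71, its neighbour Dlx1 at 2.10 and Pou3f1 at -2.35. Zeb1 (865, 869 and 853 CPM in NSC and 436, 454 and 416 CPM in D2), a repressor known from undifferentiated and migrating cells, fell and was the most abundant of that list.

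Pumps of the cell membrane rose more often than they fell. Pumps and exchangers rose in 18 and fell in 6 of 26 cases (median 0.62). Atp1b2, a beta subunit of the sodium pump, read 151, 158 and 147 CPM in NSC and 1014, 999.7 and 1032 CPM in D2, an edgeR log2 fold change of 2.74 (SE 0.05, adjusted p = 6.93e-13). No NSC library of this gene was within 5 times of its lowest D2 library. The water and glycerol channel Aqp9 rose from 0.378, 0.222 and 0.551 CPM to 7.06, 6.38 and 7.58 CPM, and the sodium-calcium exchanger Slc24a3 rose by 3.40. Slc12a2, the chloride importer known from immature neurons, and the calcium pump Atp2b1 fell (-2.37 and -1.84), changes that came to -1.41 and -1.22 with GC and length offsets.

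Amino acid transporters split into risen and fallen members, 15 and 12 of 31 (median 0.21). Those that rose include carriers that clear transmitters. Slc6a11, a GABA transporter of astrocytes, read 177, 193 and 179.5 CPM in NSC and 2274, 2069.9 and 2154 CPM in D2, an edgeR log2 fold change of 3.56 (SE 0.06, adjusted p = 2.53e-13). The glutamate transporters Slc1a1, Slc1a2 and Slc1a3 rose by 3.17, 2.52 and 2.11. Carriers that fell include Slc7a1, which imports arginine and lysine and read 230.4, 231 and 238 CPM in NSC and 26.6, 20.8 and 20.7 CPM in D2, and Slc6a6, which imports taurine and fell by 2.20 on the log2 scale.

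Potassium channels rose in 19 and fell in 18 of 40 cases (median 0.33), so the class as a whole was near the background of all genes. Kcnj10, the inward rectifier through which astrocytes buffer potassium, read 25.3, 28.8 and 28.2 CPM in NSC and 302, 285 and 266 CPM in D2 (edgeR log2 fold change 3.37, SE 0.07, adjusted p = 2.17e-12). Kcnn3, a calcium-activated channel, rose by 3.51, and the accessory subunit Kcnmb4 by 1.84. Voltage-gated Kcna3 and Kcnq5 fell (log2 fold changes -3.27 and -3.16). Among glutamate and GABA receptors 11 rose and 15 fell of 28, with a median of -0.40 that was -0.03 with GC and length offsets. Shisa9, an auxiliary subunit of AMPA receptors, read 2.36, 1.85 and 1.76 CPM in NSC and 133, 128 and 126 CPM in D2, an edgeR log2 fold change of 6.01 (SE 0.10, adjusted p = 3.97e-13). Gria1 read 3.31, 3.33 and 2.43 CPM in NSC and 41.8, 45.8 and 40.6 CPM in D2, while Gria2, the subunit that blocks calcium entry, read 663, 649.8 and 693 CPM in NSC and 153, 213 and 210.3 CPM in D2 and fell (-1.81, and -1.09 with the offsets). Gabra2 and Gria3 fell (-3.74 and -2.75), and their changes were -2.50 and -2.02 with the offsets.

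Gap and tight junction genes rose in 14 and fell in 5 of 19 cases (median 0.79). Gja1, the main connexin of astrocytes, read 18.0, 20.4 and 18.1 CPM in NSC and 203, 206 and 193 CPM in D2, an edgeR log2 fold change of 3.41 (SE 0.07, adjusted p = 1.04e-12). Gjd2, the connexin of electrical synapses, read 2.27, 2.96 and 1.65 CPM in NSC and 54.7, 52.9 and 50.8 CPM in D2. The claudin gene Cldn10 rose to 12.3, 6.73 and 9.39 CPM from under 1 CPM, and Mlc1, a membrane protein of astrocyte end-feet, read 165, 173 and 173 CPM in NSC and 1041, 965 and 1016 CPM in D2. Connexin Gjc1 and the tight junction protein Cgn fell by 1.03 and 0.99 on the log2 scale.

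Most genes of fat burning rose. Fatty acid oxidation, by which mitochondria and peroxisomes burn fat, had 32 of 39 genes risen and 4 fallen (median 0.89, and 2 fallen with GC and length offsets). Cpt1a, the carnitine transferase that admits long-chain fatty acids to mitochondria, read 39.9, 38.3 and 37.9 CPM in NSC and 149, 148 and 144 CPM in D2, an edgeR log2 fold change of 1.92 (SE 0.06, adjusted p = 2.51e-11). Acad11 and Ech1 rose by 2.45 and 2.05, and Hadha, the most abundant of the list, read 212, 216 and 213 CPM in NSC and 476, 439.9 and 438 CPM in D2. Cpt1b, the muscle-type relative of Cpt1a, read 6.14, 7.47 and 6.84 CPM in NSC and 0.490, 5.79 and 5.09 CPM in D2, and its fall (-0.97, SE 0.38, adjusted p = 0.033 in edgeR) rested on the D2 control library: without the D2 control the change was -0.40 and without the NSC control -0.39, and neither passed. In TPM, which allows for transcript length, Cpt1b read 6.22, 6.0 and 6.09 in NSC and 3.18, 4.53 and 3.88 in D2. On that scale the D2 control stood out less. Its value rests on just 5 counts, against 49 with naloxone and 45 with DAMGO in D2. Fatty acid synthesis and desaturation genes were mixed, 18 risen and 13 fallen of 37 (median 0.12). There Gpam, which starts triglyceride synthesis, rose by 2.0, and Acsl4, which activates arachidonic acid, fell from 90.8, 85.4 and 88.9 CPM to 8.53, 7.21 and 8.15 CPM (-3.47, and -2.30 with the offsets). Fabp7, the fatty acid carrier of radial glia and the most abundant gene of the list, read 1758, 1738 and 1766 CPM in NSC and 2978, 2665 and 3104 CPM in D2 and rose (0.73, and 1.54 with the offsets).

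Glycogen, creatine and pyruvate genes rose in 21 and fell in 7 of 35 cases (median 0.60, and 0.87 with GC and length offsets). Pygb, the brain glycogen phosphorylase, read 51.9, 50.5 and 49.5 CPM in NSC and 830.2, 813 and 832 CPM in D2, an edgeR log2 fold change of 4.03 (SE 0.05, adjusted p = 1.14e-13). Ppp1r3c, which targets a phosphatase to glycogen, read 12.5, 13.3 and 13.9 CPM in NSC and 173, 172 and 173 CPM in D2. Aldoc, the aldolase of astrocytes, read 62.7, 67.9 and 61.0 CPM in NSC and 921, 891 and 932 CPM in D2. These 3 genes rose by 3.71 to 4.03 on the log2 scale, and none had overlapping libraries. Ldha, which makes lactate, read 532, 538 and 566 CPM in NSC and 116, 112 and 114 CPM in D2 and fell. Creatine kinase Ckb, the most abundant, read 4623, 4621 and 4552 CPM in NSC and 4068, 3956 and 4159.8 CPM in D2 and fell (-0.18, SE 0.03, adjusted p = 0.000465 in edgeR), with a change of -0.61 under the offsets.

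Retinoid and aldehyde metabolism had the highest median of the lists, 1.18, with 17 of 21 genes risen and 1 fallen. Dhrs3, which turns retinaldehyde back into retinol, read 0.0944, 0.296 and 0 CPM in NSC and 13.5, 12.5 and 15.7 CPM in D2. The cytochromes P450 Cyp4f14 and Cyp4f15, which hydroxylate fatty acids and related lipids, rose by 5.07 and 4.71, the latter from 1.23, 0.814 and 0.882 CPM to 28.0, 24.9 and 24.1 CPM. Aldh7a1, an aldehyde dehydrogenase and the most abundant of the list, read 47.3, 50.7 and 48.2 CPM in NSC and 170.4, 154 and 166 CPM in D2. The 1 member that fell was Aldh1a3, which makes retinoic acid and read 3.12, 3.99 and 3.53 CPM in NSC and 0.981, 0.354 and 0.566 CPM in D2 (edgeR log2 fold change -2.43, SE 0.38). It is named after its value was seen.

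Serine, glycine and one-carbon genes fell in 17 and rose in 10 of 30 cases (median -0.26), and single members moved far in both directions. Shmt1, which passes one-carbon units from serine to folate in the cytosol, read 105, 109 and 101 CPM in NSC and 7.65, 9.33 and 8.60 CPM in D2, an edgeR log2 fold change of -3.63 (SE 0.08, adjusted p = 3.67e-12). Mthfd2, the mitochondrial folate dehydrogenase of dividing cells, read 73.9, 76.8 and 78.0 CPM in NSC and 6.87, 6.62 and 6.45 CPM in D2. Both genes were at least 10 times higher in every NSC library than in any D2 library. In the other direction, Aldh1l1, a folate dehydrogenase used as an astrocyte marker, read 25.0, 26.6 and 19.96 CPM in NSC and 157, 145 and 165 CPM in D2, and Cbs, which makes cystathionine, rose by 2.63. Phgdh, the entry enzyme of serine synthesis, read 400.1, 397 and 412 CPM in NSC and 457, 454 and 489 CPM in D2 and rose by 0.21, which became -0.08 with GC and length offsets. Sphingolipid and galactolipid enzymes rose in 14 and fell in 12 of 32 cases (median 0.11), with Gal3st1 at 5.33 (0.189, 0.592 and 0.110 CPM in NSC and 13.7, 12.8 and 15.1 CPM in D2), the ganglioside enzyme B4galnt1 at 1.26 and the glucosylceramide synthase Ugcg at -1.46 (-0.91 with the offsets).

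Metallothioneins are small proteins that bind zinc and copper, and all 3 measured genes rose. Mt3, the form of the nervous system, read 33.2, 39.2 and 33.6 CPM in NSC and 362, 307 and 355 CPM in D2, an edgeR log2 fold change of 3.26 (SE 0.09, adjusted p = 1.01e-11). Mt2 read 4.91, 7.32 and 7.06 CPM in NSC and 141, 122 and 132 CPM in D2 (4.34, SE 0.11), and Mt1 read 92.6, 93.6 and 92.9 CPM in NSC and 186, 179 and 181 CPM in D2 (0.97, SE 0.05). Their D2 libraries were all above their NSC libraries, and the order by size of change was Mt2, Mt3, Mt1, the last at 0.62 with GC and length offsets. In their list of metallothionein, glutathione, iron and antioxidant genes, 25 of 50 rose and 13 fell (median 0.20), and 20 fell with GC and length offsets. Txnip, an inhibitor of thioredoxin and glucose uptake, rose by 3.22, and the transferrin receptor Tfrc, which dividing cells use to import iron, fell from 268, 257 and 276 CPM to 28.8, 30.9 and 34.2 CPM. The ferritin chain gene Ftl1, the most abundant, rose by 0.35, and by 0.02 with the offsets, where it did not pass.

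The main member changed in several of the families looked at. Shares of the summed TPM of a family, a scale that allows for transcript length, were taken per library for families chosen after their values were seen, and they have no test. Lactate dehydrogenase went from 21.6% ± 1.02 Ldhb (SD over 3 libraries) in NSC to 82.6% ± 0.345 in D2, while the family sum was 995.7 TPM and 941.7 TPM. Aldolase went from 13.5% ± 0.531 Aldoc to 78.8% ± 0.0861, and its family sum from 751 to 1784 TPM. Beta subunits of the sodium pump went from 33.9% ± 0.926 Atp1b2 to 86.1% ± 0.759, and their sum from 356 to 916 TPM. Each of these shifts in share was many times the SD between libraries of a state. Mycl held 5.82% ± 0.771 of the MYC family in NSC and 51.6% ± 1.53 in D2, with a family sum of 219 and 197 TPM. Id4 held 0.452% ± 0.198 and 18.8% ± 0.776 of the ID family, whose sum went from 199.6 to 413.7 TPM. Lims2 held 0.429% ± 0.0981 of the PINCH adaptors in NSC and 52.4% ± 3.89 in D2, where Lims1 held the rest. In the D2 library with naloxone Lims2 held 48.0%, and the sum of the PINCH adaptors went from 143 to 80.7 TPM. Id2 and Id3 together held most of the ID family in both states. Among long-chain acyl-CoA synthetases Acsl3 stayed the main member, with 55.3% ± 0.999 and 53.1% ± 3.85, while Acsl6 went from 8.24% ± 0.883 to 32.9% ± 2.95. The level of Acsl6 went from 17.8 to 36.1 TPM, and the sum of its family from 216 to 110 TPM. Among AMPA receptor subunits Gria2 stayed the main one: Gria1 went from 0.369% ± 0.0306 to 12.8% ± 1.25, and Gria2 from 81.1% ± 0.325 to 66.6% ± 2.89. The sum of the AMPA receptor subunits went from 379 to 139 TPM. Among metallothioneins Mt3 went from 26.3% ± 1.56 to 52.5% ± 1.39 and Mt1 from 69.1% ± 2.05 to 28.0% ± 1.33. Their sum went from 624 to 3038 TPM, and Mt1 itself rose from 431.1 to 847.8 TPM.

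**Figure D4:**
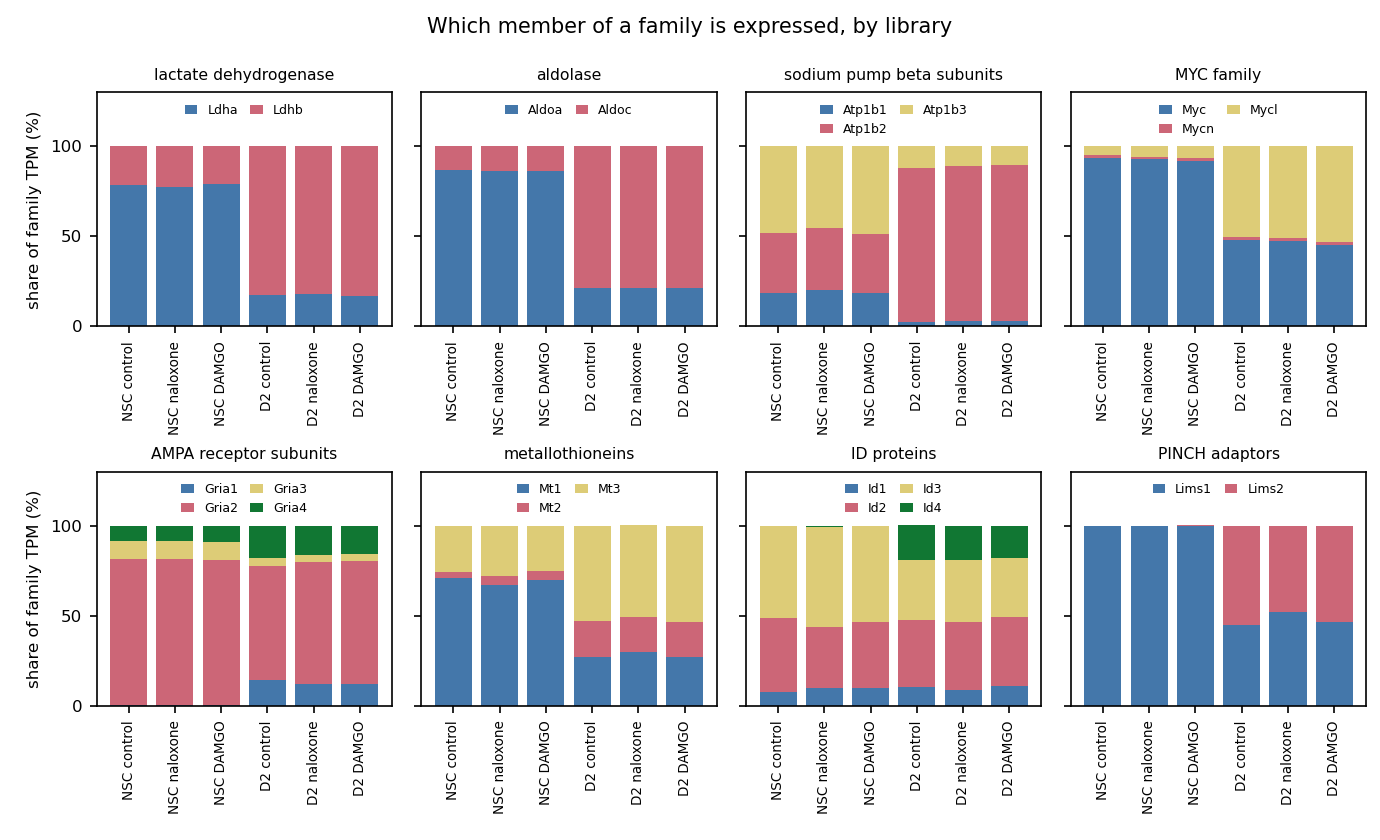
Share of the summed TPM of a gene family held by each member, in percent (vertical axis), in each of the 6 libraries (bars) for 8 families. Bars of the same state look alike across ligands, and Ldhb, Aldoc and Atp1b2 hold most of their family in every D2 library.

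The growth machinery fell broadly. Ribosome biogenesis factors, which process ribosomal RNA in the nucleolus, fell in 55 of 60 cases and rose in 2 (median -1.04, and -1.15 with GC and length offsets). Npm1, the nucleolar chaperone nucleophosmin and the most abundant of the list, read 1131, 1105 and 1136 CPM in NSC and 172, 182 and 212 CPM in D2, an edgeR log2 fold change of -2.58 (SE 0.06, adjusted p = 3.36e-12). Gnl3, the nucleolar GTPase nucleostemin, read 154, 142 and 151 CPM in NSC and 15.99, 21.4 and 19.5 CPM in D2, and Taf1d, of the RNA polymerase I machinery, fell by 2.64 on the log2 scale. With the offsets Npm1 came to -1.50 and Taf1d to -1.62. The 2 that rose, Imp4 (0.21, SE 0.07) and Rrp1 (0.16, SE 0.06), did so slightly. Both changes were below 0 with the offsets, and 0 members rose without the NSC control, the D2 control or the D2 library with DAMGO and 1 without the NSC library with DAMGO. Nucleotide synthesis genes fell in 27 and rose in 3 of 30 cases (median -0.97 in both fits). Hprt, which recycles purine bases, read 58.0, 56.2 and 62.5 CPM in NSC and 6.87, 6.02 and 6.22 CPM in D2, and Nt5e, the surface enzyme that makes adenosine, read 12.7, 13.5 and 13.9 CPM in NSC and 1.28, 1.18 and 0.792 CPM in D2. Paics, a step of purine synthesis and the most abundant of the list, read 368, 360.2 and 380.5 CPM in NSC and 284, 284 and 262 CPM in D2. The 3 that rose were Uck1 (0.58), Guk1 (0.42) and Ctps2 (0.26), and Ctps2 did not pass without the NSC or the D2 library with naloxone (0.17 and 0.16). With GC and length offsets Hprt came to -2.11, Uck1 to 0.30, Guk1 to 0.10 and Ctps2 to 0.60.

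Transfer RNA synthetases and translation factors fell in 38 and rose in 7 of 50 cases (median -0.82). Eif4ebp1, an inhibitor of cap-dependent translation, read 41.1, 40.9 and 43.4 CPM in NSC and 5.10, 5.32 and 2.94 CPM in D2, an edgeR log2 fold change of -3.22 (SE 0.15, adjusted p = 1.16e-09). Eif3a, the largest subunit of an initiation complex, read 715, 713 and 699 CPM in NSC and 131, 157 and 179 CPM in D2, a log2 fold change of -2.20 that was -1.33 with GC and length offsets. Eef1a1, an elongation factor and the most abundant of the list, read 10070.0, 9908 and 9867 CPM in NSC and 11237, 11805 and 11585 CPM in D2, and Eef2, also an elongation factor, read 3047, 3075 and 2999 CPM in NSC and 3685, 3815 and 3874 CPM in D2. Eef1a1 and Eef2 rose by 0.21 and 0.32, and Eef2 was at -0.01 with GC and length offsets. Eef2k, the kinase that inhibits Eef2, rose by 0.64 (0.36 with the offsets).

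Lysosomal genes rose in 40 and fell in 10 of 57 cases (median 0.53). Lysosomes break down lipids, sugars and proteins, and many of their genes carry E-box motifs, short palindromes read by helix-loop-helix leucine zipper factors such as TFEB. Gm2a, the activator of ganglioside breakdown, read 65.2, 67.2 and 61.5 CPM in NSC and 474, 474 and 502 CPM in D2, an edgeR log2 fold change of 2.90 (SE 0.06, adjusted p = 1.39e-12). Ctsf, a cathepsin protease, read 11.4, 10.4 and 12.3 CPM in NSC and 82.7, 81.5 and 89.4 CPM in D2, and Psap, the precursor of the saposins and the most abundant of the list, read 695, 711 and 694 CPM in NSC and 1457, 1481 and 1572 CPM in D2. Each D2 library of these 3 genes was above each NSC library. Man2b2, a mannosidase, rose by 2.41, and the cathepsin Ctsc and the mannosidase Manba fell by 1.03 and 0.72 on the log2 scale, with Ctsc at -0.54 under the offsets.

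The E-box CACGTG, the same on both strands, was looked up in the 250 bases before the start of each gene in RefSeq (GRCm38.p6, the assembly of mm10). It was present for 15 of the 46 lysosomal genes with a promoter entry, 32.6%, against 6.86% of all 27025 genes and 9.99% of the tested genes with an entry, and 3 of 52 ribosome biogenesis genes, 5.77%. It was not more frequent among the lysosomal genes that rose: 10 of 34 that rose held it and 5 of the other 12, and the median log2 fold change was 0.95 with the motif and 0.52 without it. The longer form TCACGTGA, which contains the E-box, stood before 6 of the 46, 13.0%, against 0.907% of all genes and 1.76% of the tested genes with an entry. Of the 6, 3 were among the 34 that rose and 3 among the other 12. These matches are letters in a window and are not shown to be bound. To show genes on either side, 60-base windows with the E-box in capitals follow, 5′ to 3′ on the strand of the gene, for Ctsf (chr19:4855059-4855118, + strand), Arsa (chr15:89477425-89477484, - strand) and Ctsd (chr7:142387893-142387952, - strand), which rose, and for Mcoln1 (chr8:3500447-3500506, + strand) and Gla (chrX:134601167-134601226, - strand), which did not.
Ctsf: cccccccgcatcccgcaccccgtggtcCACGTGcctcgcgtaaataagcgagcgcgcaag
Arsa: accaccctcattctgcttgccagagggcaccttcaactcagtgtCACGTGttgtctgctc
Ctsd: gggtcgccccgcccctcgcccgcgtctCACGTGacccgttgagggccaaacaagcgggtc
Mcoln1: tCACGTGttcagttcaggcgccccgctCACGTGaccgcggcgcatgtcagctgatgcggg
Gla: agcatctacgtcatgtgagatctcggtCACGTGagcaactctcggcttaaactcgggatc
The edgeR log2 fold changes of these genes were 2.89 for Ctsf, 1.56 for the sulfatase Arsa, 0.95 for the protease Ctsd, -0.14 for the calcium channel Mcoln1, which did not pass, and -0.50 for the galactosidase Gla, which fell. Apart from Ctsf, these examples were chosen after their values were seen.

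Genes of the cell surface and its surroundings rose more often than they fell. Matrix proteins and proteoglycans rose in 31 and fell in 15 of 57 cases (median 0.61). Tnc, a matrix glycoprotein of the stem cell niche, read 1983, 2008 and 2006 CPM in NSC and 163, 189 and 158 CPM in D2, an edgeR log2 fold change of -3.56 (SE 0.06, adjusted p = 2.94e-13). Nid1, a basement membrane linker, read 1.42, 2.29 and 2.09 CPM in NSC and 25.5, 26.5 and 25.0 CPM in D2, and the brain proteoglycan Bcan, the most abundant of the list, read 851, 876 and 884 CPM in NSC and 1836, 1771 and 1906 CPM in D2. Tnc was lower, and Nid1 and Bcan were higher, in every D2 library than in any NSC library, and Bcan rose by 1.08, or 0.68 with GC and length offsets. The glypican Gpc5 and the matrix protein Vit rose by 3.01 and 2.69, and Matn2 fell by 3.16. Extracellular proteases and inhibitors rose in 19 and fell in 12 of 37 cases (median 0.40). Cst3, the secreted protease inhibitor cystatin C, read 105, 106 and 104 CPM in NSC and 1585, 1376 and 1595 CPM in D2, and Timp3, an inhibitor of metalloproteases, read 28.6, 28.6 and 27.0 CPM in NSC and 335, 361 and 320.0 CPM in D2. Itih3 rose by 4.83, and the procollagen peptidases Adamts14 and Adamts3 fell by 6.98 and 2.95 on the log2 scale.

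Most adhesion and guidance genes rose. Neural adhesion molecules rose in 36 and fell in 11 of 55 cases (median 0.83), and 4 fell with GC and length offsets. Dscaml1, an immunoglobulin-type adhesion molecule, read 6.71, 5.47 and 5.07 CPM in NSC and 121, 105 and 115 CPM in D2, an edgeR log2 fold change of 4.30 (SE 0.09, adjusted p = 1.52e-12). Cadm4, which links glia to axons, read 79.1, 79.5 and 79.9 CPM in NSC and 598, 544 and 576 CPM in D2, and Igsf11 rose by 3.42. Chl1 fell (-1.87, and -0.97 with the offsets), and Cntn3 fell by 1.70 but did not pass with them (-0.48). Axon guidance genes rose in 38 and fell in 11 of 58 cases (median 0.74). Draxin, a secreted repellent of axons, read 16.8, 19.4 and 18.3 CPM in NSC and 312, 335 and 329.7 CPM in D2, and Rgma, a membrane-bound repellent, read 64.1, 66.5 and 61.0 CPM in NSC and 582, 551 and 561 CPM in D2. The semaphorin Sema4a rose from 0, 0.444 and 0.331 CPM to 4.22, 6.73 and 5.55 CPM. The secreted semaphorins Sema3c and Sema3a fell. Sema3c read 14.6, 14.4 and 15.9 CPM in NSC and 0.687, 0.354 and 0.453 CPM in D2, and Sema3a read 52.9, 49.1 and 48.5 CPM in NSC and 8.04, 10.3 and 10.5 CPM in D2, a log2 fold change of -2.39 that was -1.50 with GC and length offsets.

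Cytoskeletal lists were mixed. Actomyosin genes and targets of the factors SRF and YAP rose in 23 and fell in 20 of 46 cases, with a median of 0.21 that became -0.09 with GC and length offsets. Tagln2, an actin-bundling protein gene, read 112, 106 and 122 CPM in NSC and 6.08, 5.32 and 3.17 CPM in D2, an edgeR log2 fold change of -4.53 (SE 0.13, adjusted p = 2.54e-11). Myl9, a myosin light chain of contractile cells, read 0.944, 1.04 and 0.662 CPM in NSC and 20.8, 24.5 and 25.1 CPM in D2. Cnn3, a calponin and the most abundant of the list, rose by 0.49. Genes of cilia rose in 21 and fell in 18 of 46 cases (median 0.12). Foxj1, the master factor of motile cilia, read 6.80, 5.69 and 5.84 CPM in NSC and 25.1, 27.8 and 26.9 CPM in D2 and rose, and the motile cilium genes Ccdc40 and Hydin parted, at 2.34 and -2.92. Wdr19, of the transport machinery in all cilia, rose by 1.73, Mns1 fell by 2.58, and Rfx4, the most abundant of the list, fell by 0.84. Neuronal cytoskeleton and vesicle genes rose in 27 and fell in 17 of 51 cases (median 0.35). Tubb3, a tubulin of young neurons, read 13.0, 10.3 and 12.3 CPM in NSC and 107, 99.0 and 105 CPM in D2, and Dcx, doublecortin of migrating neurons, read 8.78, 8.73 and 10.7 CPM in NSC and 66.1, 64.6 and 77.5 CPM in D2. Gap43, a growth cone protein, read 371, 351 and 354 CPM in NSC and 30.4, 34.6 and 31.8 CPM in D2. Tubb3 and Dcx thus rose (3.13 and 2.88) and Gap43 fell (-3.48), with no overlap of libraries. Dpysl4, of the collapsin response family, rose by 2.48, Ank2, a scaffold of neuronal membranes, fell by 1.46, and the tubulin Tuba1a, the most abundant of the list, read 2524, 2496 and 2405 CPM in NSC and 3406, 3046 and 3476 CPM in D2 and rose (0.42, and 0.16 with the offsets).

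Complement and antigen presentation genes rose in 9 and fell in 5 of 18 cases (median 0.22). Tapbp, which loads peptides onto MHC class I, read 15.2, 14.5 and 11.4 CPM in NSC and 62.6, 59.7 and 67.8 CPM in D2, an edgeR log2 fold change of 2.19 (SE 0.10, adjusted p = 1.49e-09), and the complement component C2 rose by 2.61. The class I gene H2-T23 rose and H2-Q4 fell (1.24 and -1.03), and reads of such similar genes may be shared between them. Erap1, which trims peptides, fell by 0.78 and was at 0.01 with GC and length offsets.

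Gene biotypes differed in how they moved. Of all tested genes, 40.0% rose and 39.8% fell. Of 12168 protein-coding genes tested, 5015 (41.2%) rose and 4857 (39.9%) fell (median log2 fold change 0.02). Long intergenic RNAs fell in 98 (36.6%) and rose in 74 (27.6%) of 268 cases (median -0.18). Both shares were below those of all tested genes. Loci of the biotype TEC, whose status as genes awaits experiments, fell in 81 (55.9%) and rose in 20 (13.8%) of 145 (median -0.68). Noncoding RNAs from bidirectional promoters rose in 15 (51.7%) and fell in 3 (10.3%) of 29 cases (median 0.73). Antisense RNAs too were called less often than all genes, risen in 75 (28.1%) and fallen in 80 (30.0%) of 267 cases (median -0.06). The library kit does not mark strand, so reads of such RNAs cannot be told apart from those of overlapping genes.

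Transcript usage also differed between the states for some genes. RSEM gives each gene a length in each library, the mean length of its transcripts weighted by their estimated abundance, which moves when the mix of transcripts moves. Of 6320 genes with at least 100 counts in every library and at least 2 listed transcripts, 67.8% differed by under 5% in mean length between the states. Lengths did not overlap between D2 and NSC for 26.3%, longer in D2 for 18.0% and shorter for 8.29%. With 3 libraries against 3, some genes without a difference also separate in this way, and how many was not estimated. For 128 genes (2.03%) with no overlap the longer mean also exceeded the shorter by at least 25%, 88 (1.39%) being longer in D2 and 40 (0.633%) shorter. Of these 128, 41 also changed at least 2-fold in level. The genes named next were chosen after their values were seen, and no test was made.

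The examples were picked for size or function and stand for no class of genes. Smarca2, an ATPase of the BAF chromatin remodeller, had weighted lengths of 2025, 2113 and 2060.0 bases in NSC and 3393, 3226 and 3140.0 bases in D2, a ratio of 1.57. Cnih4, an export receptor of the endoplasmic reticulum, had 1355, 1347 and 1319 bases in NSC and 2164, 2292 and 2192 bases in D2. Smg6, a nuclease of nonsense-mediated decay, had 3792, 3952 and 4102 bases in NSC and 5789, 5737 and 5848 bases in D2. The states did not overlap for any of these, and Smarca2 rose by 1.33 in level while Smg6 rose by 0.44, or 0.29 with the offsets. Anapc1, a subunit of the anaphase-promoting complex, had 5077, 5361 and 5226 bases in NSC and 7849, 7249 and 6685 bases in D2 with a log2 change in level of -0.14, or 0.42 with GC and length offsets. Lsamp, a neural adhesion gene with a shorter mix in D2, had 5835, 6042 and 6449 bases in NSC and 3954, 4094 and 3903 bases in D2, and Cadm2, also of adhesion, had 4642, 4693 and 5435 bases in NSC and 3237, 3179 and 3333 bases in D2, while both rose in level (1.14 and 1.55). Dusp11, an RNA phosphatase, had 4682, 4876 and 4933 bases in NSC and 3802, 3635 and 3881 bases in D2 with a log2 change in level of 0.00. Gas5, a noncoding host gene of small nucleolar RNAs, had 885, 866 and 832 bases in NSC and 633, 685 and 649 bases in D2. Such lengths rest on how reads were divided among transcripts, and the part of GC content or coverage along transcripts in them was not tested.

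**Figure D5:**
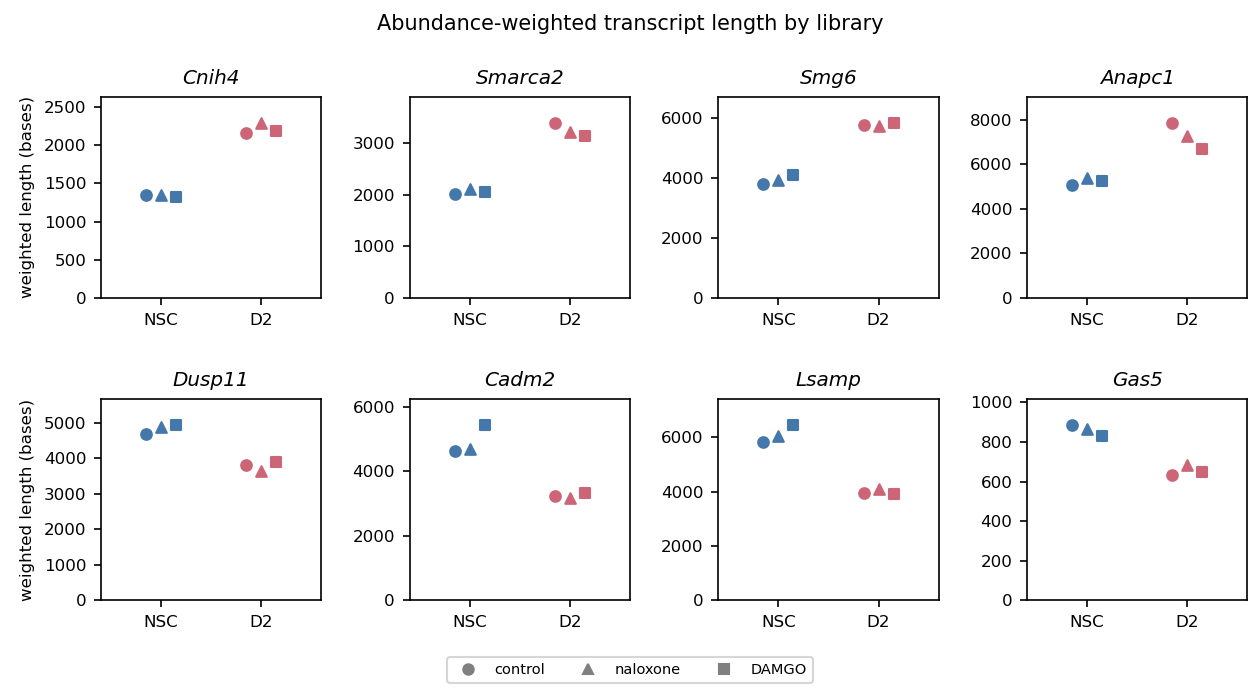
Abundance-weighted transcript length in bases (vertical axes, from 0) of 8 genes in the 3 NSC libraries (blue) and the 3 D2 libraries (red), with symbols for the ligand. The 4 genes of the upper row are longer in every D2 library and the 4 of the lower row shorter.

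The change between states was much the same under each ligand condition. Over 8282 genes of at least 20 CPM, the median range of the 3 differences between D2 and NSC was 0.194 on the log2 scale, 94.8% of genes had a range under 0.5, and 0.459% a range over 1. This is a description, since the error of the test comes from these same differences. Genes of at least 5 CPM in the higher state were then ranked by how far the control difference lay from both ligand differences. Such a ranking picks genes whose control libraries stand out, and genes that stand out with naloxone or DAMGO were not ranked. The genes named here were chosen after their values were seen. S100a6, a calcium-binding protein gene, read 0, 0.370 and 0 CPM in NSC and 11.6, 2.13 and 1.36 CPM in D2, and the imprinted noncoding RNA H19 read 0.756, 2.07 and 0.662 CPM in NSC and 13.4, 3.66 and 1.92 CPM in D2, both highest in the D2 control. Spp1, which encodes the secreted phosphoprotein osteopontin, and Fn1, which encodes fibronectin, were higher in D2 than in NSC under control conditions and lower with either ligand. Collagen genes of the fibroblast and pericyte list were also highest in the D2 control among D2 libraries. Col1a1 read 4.81, 0.827 and 0.679, Col1a2 2.45, 0.118 and 0.905 and Col3a1 3.92, 0.354 and 0.453 CPM in D2. These levels rest on few counts, 49, 7 and 6 for Col1a1. Not all members of the list were highest there. Pdgfrb was lowest in the D2 control, at 7.65, 8.62 and 8.04 CPM in D2. The part of fibroblast markers in these differences was not tested. In NSC the collagen genes were highest in the library with naloxone, Col1a1 at 3.62 CPM. Plekhg4 and Abcc12 fell more in the control pair, Plekhg4 to 0.0981, 1.30 and 1.02 CPM and Abcc12 to 0.0981, 0.827 and 0.679 CPM in D2. Tom1 (18.5, 10.6 and 31.1 CPM in NSC and 31.1, 0 and 14.1 CPM in D2) and Lsm7 (5.19, 3.92 and 14.9 CPM in NSC and 0, 9.33 and 5.55 CPM in D2) were uneven in both states, with a D2 library at 0 each. With 1 library per group, these differences between ligand conditions have no replicate check.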

How the data were processed

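Total RNA was isolated with Trizol and made into libraries with a TruSeq kit, per the labels' protocols. Bowtie, RSEM and build mm10 are named in the submitters' processing notes, and the sources used here give no version, annotation or read filter. The authors deposited for each gene and library an expected count, a TPM and a length weighted by transcript abundance. Expected counts divide reads that map to several genes, so close relatives are uncertain. Rounding them to whole numbers changed a total by at most 46.1. Of 29267 identifiers, 28756 matched GENCODE M21, the source of symbols, biotypes, coordinates and GC content. The fit took the 13216 genes whose mean was 10 counts or more, scaled by TMM, in edgeR 4.0.16 under R 4.3.3 (glmQLFit, glmQLFTest, two-sided), with state and ligand as additive terms and 2 residual degrees of freedom. P-values were adjusted by Benjamini-Hochberg over all genes, threshold 0.05. The biological coefficient of variation was 0.0529. CPM are TMM-normalised. Fold changes are log2, D2 over NSC. Their SE is the absolute log2 fold change divided by the square root of the F statistic of the quasi-likelihood test.

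Counts were also simulated for 13216 genes, with 67 changed 1.5-fold, 67 changed 2-fold and 66 changed 4-fold. The fit recovered 74.6%, 89.6% and 100% of these, and also called 17 unchanged genes. The simulation used dispersions fitted to these same 6 libraries and changed far fewer genes than the 79.8% called in the data. It therefore does not show how the fit performs under so broad a change. A few genes are not reported here. The promoter search left out genes of chromosome 18.

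The comparison, gene lists and rules were chosen with earlier results of these data known. From each list up to 3 risen and 2 fallen genes (largest change, same direction under all ligands, at least 5 CPM in the higher state) and the gene with the highest TPM were eligible for naming, as were the 10 switched genes of each kind with the highest TPM, predicted genes left out. Other switched genes and genes named outside this rule were chosen after their values were seen. Alternatives were RLE, total-count and upper-quartile scaling, DESeq2 1.42.0, other count filters, no ligand block, limma 3.58.1 on log2(TPM + 1), leaving out each library or pair and other limits for switched genes. GC and length offsets were added after the data were seen.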

Additional observations from a re-analysis of the deposited data

Results flagged for a closer look

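Spp1 and Fn1 moved in opposite directions in the control pair and in both ligand pairs. Spp1, the gene of the secreted phosphoprotein osteopontin, read 10.9, 9.24 and 9.48 CPM in NSC and 61.0, 0.354 and 0.340 CPM in D2, so D2 minus NSC on the log2 scale was 2.47 in the control pair, -4.1 with naloxone and -4.17 with DAMGO. Fn1, the gene of fibronectin, read 24.1, 28.5 and 24.1 CPM in NSC and 55.4, 11.1 and 10.8 CPM in D2, with differences of 1.20, -1.35 and -1.15. The D2 control library stood apart for both genes, whereas the NSC libraries were close to each other. Collagen genes of the fibroblast list were also higher there than in the other D2 libraries, at few counts. Col1a1 read 4.81, 0.827 and 0.679 CPM and Col3a1 3.92, 0.354 and 0.453 CPM in D2. Pdgfrb of that list was not higher there, at 7.65, 8.62 and 8.04 CPM. The part of these markers was not tested. The difference between the ligand conditions was not tested, since each pair is 1 library against 1, and neither gene passed the edgeR test of D2 against NSC (log2 fold change 0.29 for Spp1 and -0.18 for Fn1).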

How the results depend on the processing

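The counts of risen and fallen genes, 5287 and 5256, lay between 4524 and 5604 and between 4572 and 5618 over all alternatives, within 1.5 times. Without 1 library they were 4917 to 5109 risen and 4984 to 5064 fallen. These runs nearly repeat those without both libraries of a ligand. The numbers of genes switched on and off, 23 and 12, were 7 and 4 with at most 0.5 CPM in the silent state, 61 and 34 with at least 5 CPM in the other state, and 37 and 19 by group means. Without 1 library they were 23 to 30 and 12 to 16. The fit pairs D2 and NSC by ligand as its block, since the labels carry no replicate numbers, and without that block 5378 genes rose and 5332 fell.

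Of 3934 values of 220 named genes under the alternatives, 3871 kept direction and call, 31 lost the call, 11 gained it and 21 changed sign. With GC and length offsets Phgdh came to -0.079, Imp4 to -0.045, Rrp1 to -0.147, Eef2 to -0.007 and Erap1 to 0.011. Vwf, an endothelial marker of few counts, came to -0.059 with limma, -0.020 without both naloxone libraries and -0.022 to 0.571 without 1 library. Spp1 came to -3.122 with DESeq2, -1.342 with limma, -4.710 without both control libraries and -4.711 to 1.183 without 1 library. Fn1 came to 0.051 without the ligand block, 0.315 and 0.155 without both naloxone or both DAMGO libraries and -1.273 to 0.324 without 1 library, where it fell past the threshold without either control library.

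Of 1404 counts of list members, 1360 were within 1.5 times of those given. Growth factors fell in 6 cases with DESeq2 and, with a mean of at least 50 counts, rose in 7 and fell in 6. Junction genes fell in 3 and 2 cases in the same settings, and sphingolipid enzymes in 7 with DESeq2. Ribosome biogenesis genes rose in 1 case with DESeq2, limma or the offsets, and translation genes in 4 with limma. Retinoid and aldehyde genes fell in 0 and 2 cases with at least 50 counts and with the offsets. Of 5 tested fibroblast and pericyte markers 2 rose and 0 fell, but 5 rose without a naloxone library and 2 fell without a control library. Mature neuron markers fell in 4 cases, and in 2 without a DAMGO library. The causes were not tested. With 1 library per group, depth limits genes of few counts: a gene at 0 may have had up to 3.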
